A study of Mus musculus with 8 samples.

Results

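The 10 genes described here encode chains of cytokine receptors carried by T cells: Il7r, Il2rb, Il2rg, Il4ra, Il21r, Il6ra, Il6st, Il18r1, Il10ra and Ifngr1. They were chosen by name, all 10 were found among the 32285 features of the count matrices, and they were followed in 4 populations of T cells from the pancreas of diabetic NOD mice, which are prone to autoimmune diabetes. T cells with a Cd4 UMI and none of Cd8a or Cd8b1 formed the CD4 gate (27482 cells in 8 libraries), and T cells with the reverse formed the CD8 gate (22246 cells). A UMI, or unique molecular identifier, counts 1 captured RNA molecule. The CD8 gate was divided into 6548 cells with a Ccl5 UMI, a chemokine of effector and memory T cells, and 15698 cells without one. The last population was 2579 T cells in which Foxp3, the gene of the factor that specifies regulatory T cells, had at least 1 UMI.

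All animals were described as female NOD mice of 3 to 4 months with spontaneous new-onset diabetes, whereas the treatment description gives an upper age of 5 months. One library came from mice with active diabetes, with blood glucose above 600 mg/dl, and one from onset mice at 250 mg/dl, both harvested on day 1 without treatment. The treated arms began at 200 to 300 mg/dl, with 3 libraries of PPCA, which combined nutlin-3 at 50 mg/kg, an MDM2 inhibitor that raises p53, with MK-1775 at 25 mg/kg, a Wee1 inhibitor, and 3 libraries of vehicle (ethanol, Tween 20 and PEG300). Doses were given daily, and each arm had 1 library from day 2, day 3 and day 4, harvested the day after the last dose. Sorted CD45+ CD3+ TCR-beta+ cells had been frozen before library preparation. The number of mice behind a library is not given in the sources used here, so the spread between libraries may hold technical as well as animal differences.

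The libraries held 7023 to 13129 barcodes and 36934580 to 67603740 UMIs. The 4 gated populations had median depths from 3157 UMIs per cell, the lowest of the Foxp3-positive medians, to 7315, the highest of the Ccl5-negative CD8 medians. Any 2 libraries shared 14 to 41 barcodes, at most 0.431% of the smaller. Xist, which is transcribed in female cells, reached 418 to 622 CPM (UMIs per 1000000 UMIs of a library or population) in the active, onset, PPCA day 2 and vehicle day 4 libraries. It was at 0.33 to 0.74 CPM in vehicle days 2 and 3 and in PPCA days 3 and 4, where Y-linked transcripts summed to 186 to 273 CPM. Those 4 libraries go against the label of female mice, and only the day 3 pair of vehicle and PPCA was alike in this respect. The treatment labels were used as given, and whether libraries were exchanged was not tested. The Foxp3-positive cells carried 6 regulatory T cell markers other than Foxp3 at a summed 2433 ± 293 CPM (SD, n = 8), against 283 ± 103 in CD4-gated cells without a Foxp3 UMI. Of the Foxp3-positive cells 35.6% to 54.0% lay in the CD4 gate, 7.4% to 12.7% in the CD8 gate and the rest in neither. After every cell was reduced to 2000 UMIs, 0.34% to 1.30% of CD8-gated cells still had a Foxp3 UMI, against 1.27% to 4.18% of CD4-gated cells.

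Cytokine receptors of this kind are assembled from a chain that binds the cytokine and 1 or more partner chains, some of which serve several receptors. Il2rg encodes the common gamma chain, which pairs with the chains encoded by Il7r, Il4ra and Il21r and, with Il2rb, serves IL-2 and IL-15. Il6st encodes gp130, the signalling partner of the IL-6 receptor encoded by Il6ra, while Il18r1, Il10ra and Ifngr1 encode the ligand-binding chains for IL-18, IL-10 and interferon gamma. The IL-18 receptor signals through MyD88, and the others act through Janus kinases and STAT proteins. IL-7 sustains resting T cells, and regulatory T cells depend on IL-2.

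Promoter sequence from RefSeq (assembly GRCm38.p6, a C57BL/6J reference and not NOD) was found for 8 of the 10 members. Windows are shown for 3 starts, of Il7r, which had the widest gap between regulatory and conventional CD4 cells in the downward direction, and of Il18r1, which rose at each step of Ccl5 UMIs in 8 of 8 libraries. Each runs from 250 bases before to 50 after a transcription start, and capitals mark matches to a RUNX motif (TGTGGT) or a GAS motif, the STAT element (TTCNNNGAA).

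Il7r, chr15:9529827-9530126, minus strand: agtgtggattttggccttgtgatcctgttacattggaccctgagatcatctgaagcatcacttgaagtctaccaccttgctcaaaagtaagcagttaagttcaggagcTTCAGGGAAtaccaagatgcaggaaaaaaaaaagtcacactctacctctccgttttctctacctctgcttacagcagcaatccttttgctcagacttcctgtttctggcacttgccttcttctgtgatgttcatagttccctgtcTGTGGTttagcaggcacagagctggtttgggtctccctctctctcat
Il18r1 at the second start, chr1:40465371-40465670, plus strand: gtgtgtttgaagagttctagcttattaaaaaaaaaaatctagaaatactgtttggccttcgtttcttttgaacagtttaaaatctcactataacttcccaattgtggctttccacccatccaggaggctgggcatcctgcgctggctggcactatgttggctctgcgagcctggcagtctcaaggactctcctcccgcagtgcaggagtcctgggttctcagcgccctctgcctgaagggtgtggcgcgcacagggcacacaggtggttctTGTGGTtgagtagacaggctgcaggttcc
Il18r1 at the third start, chr1:40465756-40466055, plus strand: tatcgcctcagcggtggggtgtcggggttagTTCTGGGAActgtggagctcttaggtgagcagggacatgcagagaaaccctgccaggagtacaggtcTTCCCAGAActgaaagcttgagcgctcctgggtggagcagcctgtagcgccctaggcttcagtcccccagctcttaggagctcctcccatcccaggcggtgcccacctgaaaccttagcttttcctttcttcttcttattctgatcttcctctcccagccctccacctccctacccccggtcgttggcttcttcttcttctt

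Searched on both strands in 32851 promoter windows of the same length, the RUNX letters occurred in 16.8% and the GAS letters in 8.3%. The Il7r window held 1 of each, the second Il18r1 start held RUNX letters, the third held 2 GAS matches and the first, not shown, held none of the motifs searched. The bases after the start were found in GENCODE transcripts of the gene for every member window except that of Il7r. There a transcript held earlier bases of the window in the same orientation, so the start was not matched. Among the other members, Il21r held RUNX letters and FOXO letters (GTAAACA, in 3.65% of windows) that overlap by 2 bases, and Il2rg held RUNX letters. No window of a member held TCF and LEF letters (CTTTGA, in 16.0%) or T-box letters (TCACACC, in 3.98%), and the Il6ra, Il6st, Il4ra and Ifngr1 windows held none of the 5 motifs. These are letter matches only. In the gene order of the same assembly Il4ra and Il21r are neighbours, and Il18r1 lies between Il1rl1 and Il18rap.

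Il2rb, Il6ra and Il10ra kept their order of the populations in 8 of 8 libraries at each step, and Il2rg was the most even chain. Levels are given as CPM of all UMIs summed over a population within a library, as mean ± SD over the 8 libraries, and are compared for 1 gene at a time. Il2rb, the beta chain of the IL-2 and IL-15 receptors, stood at 253 ± 26.4 CPM in Foxp3-positive cells, 181 ± 33 in Ccl5-positive CD8 cells, 69.1 ± 16.3 in Ccl5-negative CD8 cells and 36.9 ± 11.2 in CD4-gated cells. Each of these 3 steps was seen in 8 of 8 libraries, and the range of Ccl5-positive cells lay wholly above that of Ccl5-negative cells. Il2rg ran only from 296 ± 29.9 CPM in Ccl5-positive CD8 cells to 342 ± 27.8 in Foxp3-positive cells. Its ranges overlapped at every step, and CD4-gated cells were above Ccl5-negative CD8 cells in 4 of 8 libraries.

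Il7r, the alpha chain of the IL-7 receptor, was highest in CD4-gated cells at 577 ± 176 CPM and lowest in Foxp3-positive cells at 286 ± 114. The Ccl5-positive and Ccl5-negative CD8 cells between them, at 493 ± 119 and 469 ± 146, kept that order in 5 of 8 libraries and did not differ beyond their spread. Il4ra, the alpha chain for IL-4 and IL-13, separated the gates without overlap, with 68.3 ± 6.28 CPM in CD4-gated cells and 48.4 ± 6.06 in Ccl5-negative CD8 cells. Il21r was near 125 CPM in 3 populations (125 ± 30.4, 124 ± 29.8 and 126 ± 26.5) and reached 164 ± 38.3 in Foxp3-positive cells, above the Ccl5-positive CD8 cells in 8 of 8 libraries.

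Il6ra descended from 170 ± 24.9 CPM in CD4-gated cells through 144 ± 22.9 in Foxp3-positive and 103 ± 16.9 in Ccl5-negative CD8 cells to 61.6 ± 14.6 in Ccl5-positive CD8 cells, each step in 8 of 8 libraries. Its partner Il6st was instead highest in Ccl5-negative CD8 cells (124 ± 36.8 CPM) and lowest in Ccl5-positive CD8 cells (70.4 ± 25.8). Il18r1 and Il10ra shared an order: Ccl5-positive CD8, Foxp3-positive, CD4-gated and Ccl5-negative CD8 cells. The Il18r1 levels were 164 ± 35.4, 126 ± 19.5, 57.7 ± 14.7 and 37.2 ± 13.5 CPM. Il10ra was scarce, at 19.8 ± 4.90, 14.9 ± 4.66, 5.66 ± 1.22 and 3.37 ± 1.35 CPM. Ifngr1 was highest in Foxp3-positive cells at 247 ± 74.1 CPM and lowest in CD4-gated cells at 113 ± 34.6. Foxp3-positive and CD4-gated cells overlap in membership, so their order is a description and the test below uses disjoint cells.

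**Figure D1:**
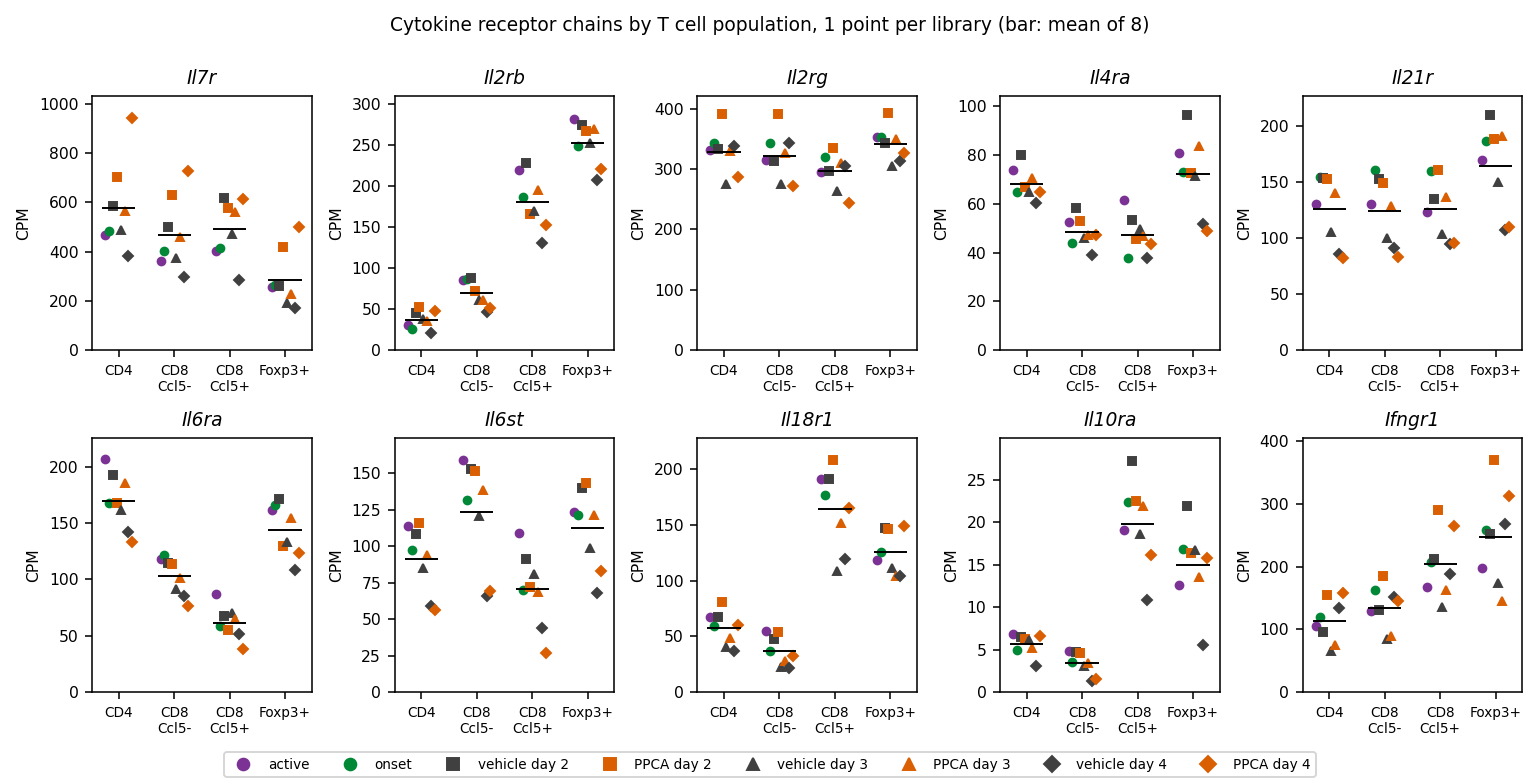
Level of each receptor chain (y axis, CPM of summed UMIs) in the 4 T cell populations (x axis), with 1 point per library, colour for group, symbol for harvest day and a bar at the mean of 8 libraries. Il2rb lies at 208 to 282 CPM in Foxp3-positive cells and at 20.4 to 52.0 in CD4-gated cells, while the Il2rg ranges overlap in all 4 populations.

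CD8-gated cells carried more Il2rb and less Il6ra and Il4ra than CD4-gated cells of the same library. In the CD8 gate Il2rb had a lowest, median and highest level of 65.3, 99.6 and 137 CPM, and in the CD4 gate 20.4, 36.7 and 52.0. The gates did not overlap, and the paired fit gave 2.89-fold more in CD8 (log2 fold change 1.53 ± 0.12 SE, edgeR adjusted p = 3.99e-08). Il6ra had 63.3, 91.4 and 111 CPM in the CD8 gate and 133, 168 and 207 in the CD4 gate, again without overlap (log2 fold change -0.88 ± 0.03, adjusted p = 5.44e-13). Il4ra, at 38.7, 47.1 and 56.8 CPM against 60.4, 66.0 and 80.1, was lower in CD8 in 8 of 8 libraries (log2 fold change -0.48 ± 0.03).

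In this comparison 8 of the 10 members were called at an adjusted p under 0.05, 5 higher and 3 lower in CD8, where 46.3% of 11562 genes tested were called, 23.4% higher and 22.9% lower. The 10 members passed the low-count filter here, as they did in every fit below. Besides Il2rb, the members higher in CD8 were Il10ra (0.55 ± 0.13), Ifngr1 (0.51 ± 0.05), Il18r1 (0.40 ± 0.06) and Il6st (0.26 ± 0.05), as log2 fold changes. Besides Il6ra and Il4ra, Il7r was lower at -0.24 ± 0.03. Il21r, at 0.04 ± 0.03 (adjusted p = 0.188), and Il2rg, at -0.02 ± 0.02 (adjusted p = 0.472), were not called. The members' median log2 fold change was 0.15, against 0.00 for all genes. All genes split into 2704 higher and 2651 lower calls, and into 2031 and 3472 when libraries were scaled by total UMIs alone, and that scaling also called Il2rg (-0.07, adjusted p = 0.0226).

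The Il18r1 and Il10ra differences turned round when cells with a Ccl5 UMI were removed from both gates. Il18r1 was then at 37.2 ± 13.5 CPM in CD8 and 53.6 ± 13.7 in CD4, lower in CD8 in 8 of 8 libraries (log2 fold change -0.48, adjusted p = 1.34e-07). Il10ra was at 3.37 ± 1.35 against 4.98 ± 1.26 CPM (-0.54, adjusted p = 0.00486). The other 6 called members kept their direction in that fit. Il10ra also missed the threshold within the 4 libraries with Y-linked transcripts (0.40, adjusted p = 0.0563).

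Cells with Ccl5 differed from the other CD8-gated cells in most receptor chains, with Il10ra, Il18r1, Il2rb and Ifngr1 higher and Il6st, Il6ra, Il2rg and Il4ra lower. Il18r1, the IL-18 binding chain, had a lowest, median and highest level of 109, 171 and 208 CPM in Ccl5-positive cells and 21.1, 34.8 and 55.2 in Ccl5-negative cells. No library of one population reached the other, and the fold was 4.17 (log2 fold change 2.06 ± 0.06, adjusted p = 1.72e-16). Il10ra had 10.9, 20.5 and 27.2 CPM against 1.33, 3.51 and 4.80, resting on 37 to 116 and 16 to 75 UMIs per library (2.46 ± 0.12, adjusted p = 5.16e-13). Il2rb had 130, 178 and 228 CPM against 46.9, 66.7 and 87.7, also without overlap (1.30 ± 0.05, adjusted p = 1.95e-14).

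The IL-6 receptor chains went the other way. Il6st, or gp130, had 26.7, 71.2 and 109 CPM in Ccl5-positive and 66.1, 135 and 160 in Ccl5-negative cells, lower in 8 of 8 libraries although the ranges overlapped (log2 fold change -0.94 ± 0.07, adjusted p = 3.76e-10). Il6ra had 37.9, 61.7 and 87.4 CPM against 76.4, 107 and 122, lower in 8 of 8 (-0.86 ± 0.07, adjusted p = 1.84e-09). Ifngr1 was higher by 0.49 ± 0.06 and Il2rg lower by -0.23 ± 0.03, in 8 of 8 libraries each. Il4ra was called at -0.15 ± 0.05 (adjusted p = 0.0329) but missed the threshold in 10 of 20 alternative fits. Il7r (-0.02 ± 0.06, adjusted p = 0.768) and Il21r (-0.08 ± 0.04, adjusted p = 0.107) were not called. In cells thinned to 2000 UMIs before gating Il7r was called lower (-0.25, adjusted p = 0.00244), as was Il21r without the low-count filter (-0.12, adjusted p = 0.0243). Over the 20 alternative fits the adjusted p ran from 0.00244 to 0.981 for Il7r and from 0.0243 to 0.687 for Il21r. The thinned cells also gave larger differences for Il6st (-1.64), Il6ra (-1.63) and Il10ra (3.09), past 1.5 times the folds above.

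Of all genes 41.5% were called in this comparison, beside 8 of 10 members, 4 in each direction, where 19.5% of genes were higher and 22% lower. The members' median log2 fold change was -0.05, against -0.02 over all genes. All calls split into 2022 higher and 2289 lower, and into 3549 and 1229 with total-UMI scaling, which moved the median of all genes by 0.11 on the log2 scale. Under that scaling Il7r and Il21r changed sign without being called, and the directions of the other 8 members held. Under it Il4ra was at -0.04 and no longer called. Markers of other cells moved with the Ccl5 division. The 5 genes of the NK list summed to 147 to 264 CPM in Ccl5-positive and 13.8 to 57.2 in Ccl5-negative cells, and the 3 gamma delta T cell genes to 49.6 to 291 and 5.26 to 12.9, with no gene of either list at 0. The sort for CD3+ TCR-beta+ cells was meant to leave out NK and gamma delta T cells. Its purity and the part of these genes in the result were not tested.

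When the CD8-gated cells were divided more finely by their Ccl5 UMIs, the receptor chains followed different courses. Il18r1 rose at each step in 8 of 8 libraries, from 37.2 ± 13.5 CPM in cells without Ccl5 to 44.5 ± 19.2 at 1 UMI, 113 ± 36.2 at 2 to 4 and 227 ± 42.3 at 5 or more. Il2rb rose from 69.1 ± 16.3 through 91.8 ± 23.5 and 169 ± 64.3 to 226 ± 43.5 CPM, at each step in 5 of 8 libraries. Il10ra stayed at 3.37 to 7.53 CPM on average up to 4 UMIs and was at 28.9 ± 6.45 at 5 or more. Il6ra was at 103 ± 16.9, 104 ± 19.0 and 97.6 ± 26.0 CPM up to 4 UMIs and at 37.2 ± 13.9 at 5 or more, and Il6st at 124 ± 36.8, 120.0 ± 46.0, 110.0 ± 44.9 and 42.0 ± 16.1. The group with 2 to 4 UMIs was small, with 32 to 72 cells per library. The cells with 5 or more also had the lowest depth, with library medians of 3564 to 5848 UMIs against 4379 to 7315 without Ccl5, and these finer groups were not reduced to a common depth.

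**Figure D2:**
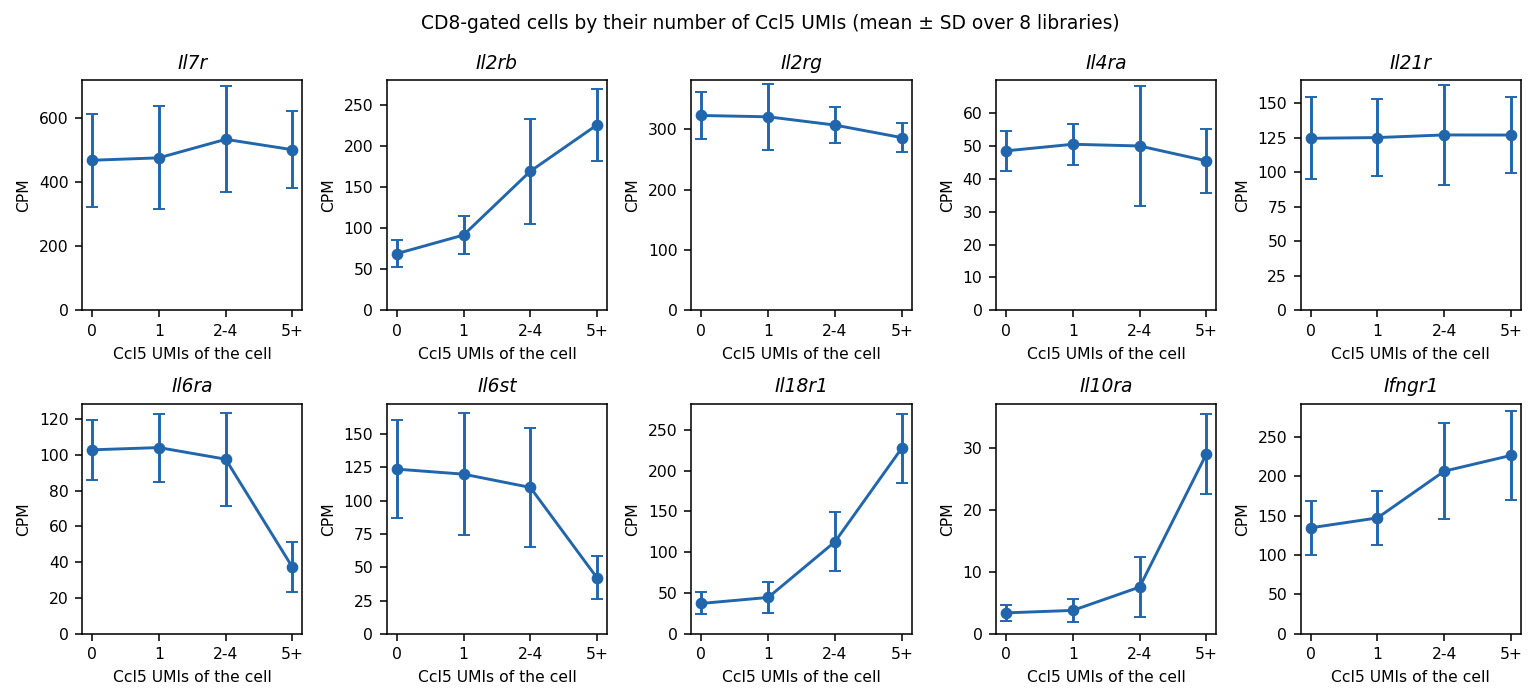
Mean level ± SD over 8 libraries (y axis, CPM) of each receptor chain in CD8-gated cells grouped by the number of Ccl5 UMIs in the cell (x axis). Il18r1 goes from 37.2 to 227 CPM, while Il6ra and Il6st drop between 2 to 4 and 5 or more Ccl5 UMIs.

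Foxp3-positive cells were the population richest in Il2rb and poorest in Il7r, set against CD4-gated cells of the same library without a Foxp3 UMI. Il2rb had a lowest, median and highest level of 208, 260 and 282 CPM against 16.5, 25.7 and 40.7, an 8.40-fold difference without overlap (log2 fold change 3.07 ± 0.09, adjusted p = 1.19e-20). Il7r had 173, 258 and 501 CPM against 386, 541 and 962, lower in 8 of 8 libraries (-1.26 ± 0.06, adjusted p = 2.97e-17). The Il7r ranges overlapped: PPCA day 2 and day 4, at 420 and 501 CPM in Foxp3-positive cells, lay above the lowest comparison value of 386.

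Il18r1 (104, 122 and 149 CPM against 35.0, 56.5 and 76.1) was higher without overlap, with a log2 fold change of 1.04 ± 0.06. Ifngr1 was higher by 1.02 ± 0.06 and Il10ra by 1.33 ± 0.15, in 8 of 8 libraries each. Il10ra rested on 7 to 37 UMIs per library in these cells. Il6ra, at 108, 144 and 171 CPM against 133, 169 and 208, was lower in 8 of 8 libraries (-0.44 ± 0.05, adjusted p = 7.13e-09), and Il21r was higher by 0.22 ± 0.04 (adjusted p = 8.60e-05). Il21r missed the threshold within the 4 libraries with Xist (0.14, adjusted p = 0.0936).

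In this comparison 9 of 10 members were called, 6 higher and 3 lower, with 38.5% of 10663 genes called, 19.1% higher and 19.4% lower. The members' median log2 fold change was 0.18, against -0.01 over all genes. The calls for all genes, 2041 higher and 2069 lower, became 4362 higher and 834 lower under total-UMI scaling, which moved the median of all genes by 0.19 on the log2 scale. The calls for Il6st and Il2rg depended on such choices. Il6st, at 0.13 ± 0.05 (adjusted p = 0.0431), missed the threshold in 13 of 20 alternative fits. Il2rg was called lower at -0.12 ± 0.04 (adjusted p = 0.00821), but under total-UMI scaling it was at 0.07 (adjusted p = 0.115), and its CPM was higher in Foxp3-positive cells in 7 of 8 libraries. Il4ra was not called at -0.10 ± 0.06 (adjusted p = 0.258) and was at 0.09 under total-UMI scaling. It was called lower without the low-count filter (-0.18, adjusted p = 0.0169), and over the 20 alternative fits its adjusted p ran from 0.0169 to 0.958.

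The Il2rb and Il7r differences were also large within the CD4 gate. With only the Foxp3-positive cells of the CD4 gate, Il2rb was at 246 ± 34.8 CPM and Il7r at 279 ± 109, against 27.3 ± 8.55 and 591 ± 181 without Foxp3. The calls for Il2rg and Il6st did not hold there (adjusted p = 0.202 and 0.303). B cell markers summed to 248 to 445 CPM in Foxp3-positive cells and 105 to 211 in the comparison cells, and myeloid markers to 143 to 202 and 116 to 138, with C1qa and C1qb at 0 in the former. The NK list summed to 9.05 to 31.6 CPM and 2.42 to 8.74, with Tyrobp at 0 in Foxp3-positive cells. Their part in the result was not tested.

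**Figure D3:**
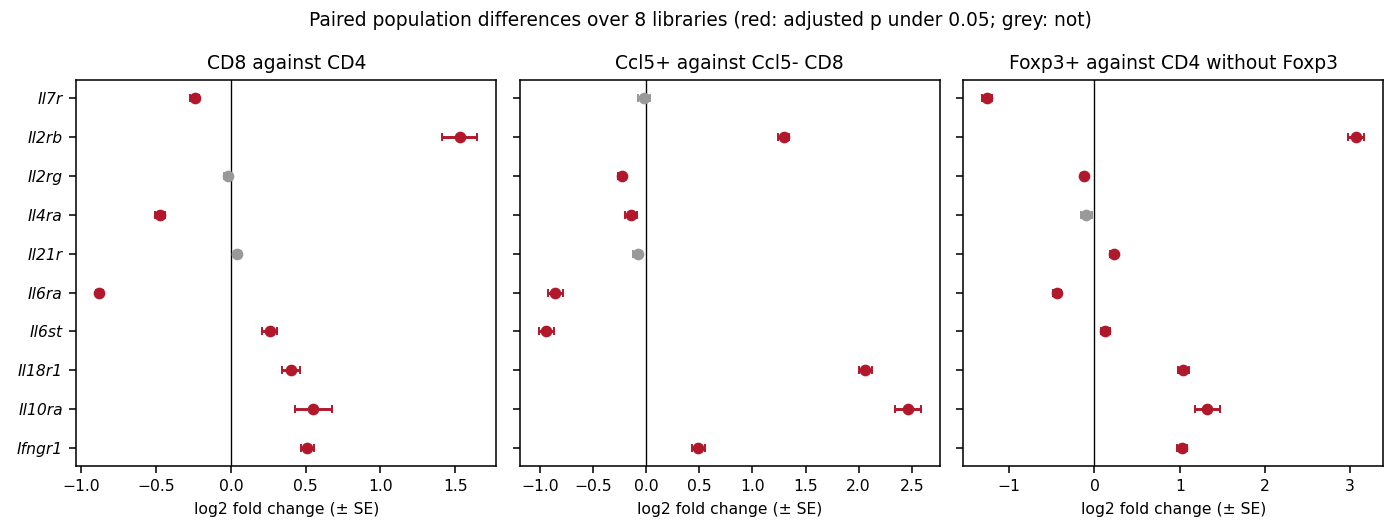
Log2 fold change ± SE (x axis) of each receptor chain (rows) in the 3 paired comparisons of populations within 8 libraries, red where the adjusted p was under 0.05. Il2rb is to the right in all 3 panels, at 1.53, 1.30 and 3.07, and Il6ra to the left, at -0.88, -0.86 and -0.44.

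Among 20 other receptor chains, Il2ra, the alpha chain that makes the IL-2 receptor high-affinity, and Il18rap, the signalling partner of Il18r1, were given in every case. Il2ra stood at 199 ± 48.6 CPM in Foxp3-positive and 6.62 ± 2.36 in CD4-gated cells without Foxp3 (log2 fold change 4.76). It was 3.61 ± 1.29 CPM in Ccl5-positive and 3.73 ± 1.52 in Ccl5-negative CD8 cells, where Il2rb differed 2.46-fold. Il18rap stood at 38.6 ± 12.1 CPM in Ccl5-positive and 3.06 ± 1.95 in Ccl5-negative CD8 cells (3.57) and differed by 1.25 between Foxp3-positive and CD4 cells.

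Of these other chains 10 of 14 tested were higher and 3 lower in Foxp3-positive cells, where 19.1% of all genes were higher and 19.4% lower. They were led by Il2ra, Il1r2, a decoy receptor for IL-1 (4.27), and Il1rl1, the IL-33 receptor (3.39). Tgfbr2 (-0.86) and Ifngr2, the partner of Ifngr1 (-0.81), were lowest. In Ccl5-positive against Ccl5-negative CD8 cells 6 of 12 were higher and 4 lower, beside 19.5% and 22% of all genes, with Il18rap and Il12rb1 (1.67) at the top and Ifngr2 at the bottom (-1.75), opposite in sign to Ifngr1. In CD8 against CD4, 7 of 14 were higher and 5 lower, beside 23.4% and 22.9% of all genes, from Il18rap (1.93) to Il1rl1 (-3.37).

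Genes that act downstream of the receptors were counted in the same way. Of the 11 Jak and Stat genes, all tested, 4 were higher and 5 lower in CD8 than CD4, 4 and 4 in Ccl5-positive cells and 8 and 1 in Foxp3-positive cells. The shares of all genes called were 46.3%, 41.5% and 38.5% in these comparisons. Stat5b, which transmits IL-2 and IL-7 signals, was at -0.53 in CD8 against CD4, and Stat4, which transmits IL-12 signals, at 0.62. Stat5a was at 0.54 in Foxp3-positive cells. Of 8 cytokine feedback genes 5 were higher and none lower in Ccl5-positive CD8 cells, with Cish at 2.42 and Socs2 at 1.95, and 5 were higher and 1 lower in Foxp3-positive cells, with Socs2 at 2.70 and Cish at 1.58. In CD8 against CD4 cells 1 was higher and 4 lower, with Socs2 at -1.81.

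No receptor chain was called between PPCA and vehicle in any of the 4 populations. The share of all genes called was 0% in CD4-gated and Ccl5-negative CD8 cells (0 of 11598 and 0 of 11115), 0.01% in Ccl5-positive CD8 cells and 0.0831% in Foxp3-positive cells. At an unadjusted p under 0.05 the members numbered 1 in CD4-gated, 2 in Ccl5-negative CD8, 4 in Ccl5-positive CD8 and 1 in Foxp3-positive cells. Of all genes tested 796 of 11598, 834 of 11115, 642 of 9999 and 566 of 8423 had such a p in these populations. Other tools called 0 members as well, DESeq2 calling 35, 33, 23 and 15 genes in the 4 populations.

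With the labels as given and all 3 days fitted, Il7r had the largest difference of the members in CD4-gated, Ccl5-negative CD8 and Foxp3-positive cells. With 1 day pair left out its log2 fold change ran from 0.13 to 0.74, 0.19 to 0.79 and 0.42 to 1.09 in these populations. In CD4-gated cells the log2 ratios of PPCA to vehicle on days 2 and 3 were 0.70 and 0.20 for Ifngr1, beside 0.26 and 0.21 for Il7r. In CD4-gated cells it was at 585, 489 and 381 CPM in vehicle on days 2, 3 and 4, and at 702, 563 and 944 in PPCA. PPCA was higher on each day, but its day 3 value lay below the day 2 vehicle value, so the arms overlapped (log2 fold change 0.51 ± 0.22, adjusted p = 0.729). In Ccl5-negative CD8 cells the vehicle values were 501, 374 and 295 CPM and the PPCA values 629, 459 and 727 (0.56 ± 0.20, adjusted p = 0.627).

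Foxp3-positive cells had Il7r at 259, 190 and 173 CPM in vehicle and 420, 228 and 501 in PPCA (0.78 ± 0.20, adjusted p = 0.329). In Ccl5-positive CD8 cells the order was not the same on all days, with 617, 471 and 286 CPM in vehicle and 575, 562 and 614 in PPCA. The log2 ratio of PPCA to vehicle was 0.26, 0.33, -0.10 and 0.70 on day 2 in the 4 populations (CD4, Ccl5-negative CD8, Ccl5-positive CD8, Foxp3-positive). It was 0.21, 0.30, 0.26 and 0.26 on day 3 and 1.31, 1.30, 1.10 and 1.54 on day 4.

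Day 3 was the pair of libraries alike in Xist and Y-linked transcripts. On days 2 and 4 the arms differed in them, in opposite senses, so the direction of each ratio on those days rests on labels that the transcripts go against in part. With this difference as a further factor, which leaves 1 residual degree of freedom, Il7r was called in CD4-gated (0.51, adjusted p = 0.0245), Ccl5-negative CD8 (0.56, adjusted p = 2.64e-06) and Foxp3-positive cells (0.80, adjusted p = 0.00133). The vehicle day 4 library was the lowest for Il7r in all 4 populations. The 10 dissociation and early response genes summed to 4459 CPM in CD4-gated cells of vehicle day 4 and 7678 of PPCA day 4, against 1109 to 2541 in the other 6 libraries, and their part was not tested.

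Il6st and Il6ra were lower under PPCA on each day in Ccl5-positive CD8 cells. Il6st was at 91.3, 81.0 and 44.0 CPM in vehicle on days 2, 3 and 4 and at 72.2, 68.6 and 26.7 in PPCA (log2 fold change -0.50 ± 0.11, adjusted p = 0.430). Il6ra was at 67.5, 69.9 and 51.7 CPM in vehicle and 55.1, 64.9 and 37.9 in PPCA (-0.36 ± 0.11, adjusted p = 0.591). In the same cells the 8 effector and memory markers summed to 2649, 2174 and 3309 CPM in vehicle and 3723, 2600 and 3533 in PPCA, and their part in the result was not tested. The arms overlapped for Il6st and Il6ra, and the spread between days was wider than the gap within a day. Without the low-count filter Il6st was called there (-0.50, adjusted p = 0.0196), as was Il7r in Ccl5-negative CD8 (adjusted p = 1.71e-04) and Foxp3-positive cells (adjusted p = 3.00e-05). Over all 13 alternative fits the adjusted p for Il7r ran from 0.0245 to 1.00 in CD4-gated, from 2.64e-06 to 1.00 in Ccl5-negative CD8 and from 3.00e-05 to 0.996 in Foxp3-positive cells, and for Il6st from 0.0138 to 1.00 in Ccl5-positive CD8 cells.

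Il18r1 was higher under PPCA on each day in CD4-gated (0.33 ± 0.13), Ccl5-negative CD8 (0.28 ± 0.12) and Ccl5-positive CD8 cells (0.28 ± 0.11), as fitted log2 fold changes with adjusted p from 0.662 to 0.741. Ifngr1 was higher on each day in CD4-gated (0.30 ± 0.13) and Ccl5-positive CD8 cells (0.33 ± 0.11), Il21r in Ccl5-positive CD8 cells (0.14 ± 0.10), and Il2rg (0.11 ± 0.11) and Il6st (0.15 ± 0.13) in Foxp3-positive cells. In all, 13 of the 40 combinations of member and population had the same direction on all 3 days, with 3, 2, 5 and 3 of 10 members in the 4 populations. Of all genes with 10 or more UMIs in each of the 6 libraries, 30.6%, 30.2%, 28.5% and 28.8% had the same direction on all days. The pooled 13 of 40 was near these shares, while the 5 of 10 in Ccl5-positive CD8 cells was above its 28.5%, which was not tested. All these directions take the labels of days 2 and 4 as given. The remaining 27 had fitted log2 fold changes from -0.14 to 0.34, and 23 of them changed sign in at least 1 alternative fit.

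A test of whether the treatment difference differed between the CD8 and CD4 gates called 0 of 10 members, beside 0.00822% of 12171 genes (432 at an unadjusted p under 0.05). Il2rb was farthest from 0, at -0.39 ± 0.13 (unadjusted p = 0.0113, adjusted p = 1.00). In the CD4 gate Il2rb was at 45.8, 38.4 and 20.4 CPM in vehicle and 52.0, 35.0 and 48.1 in PPCA. The 7 regulatory T cell markers summed to 381, 417 and 302 CPM there in vehicle and 577, 382 and 600 in PPCA. The effector and memory markers summed to 235, 192 and 206 CPM in vehicle and 197, 181 and 425 in PPCA. The part of these markers in the result was not tested.

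**Figure D4:**
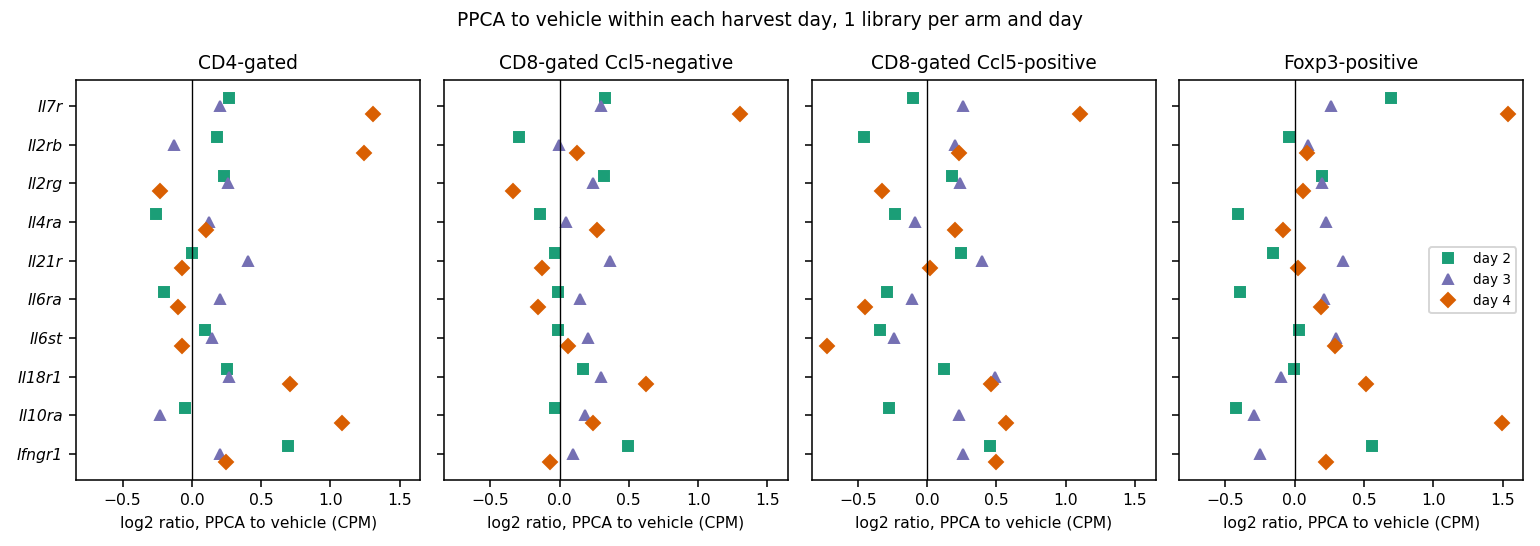
Log2 ratio of PPCA to vehicle CPM (x axis) for each receptor chain (rows) within harvest days 2, 3 and 4, in the 4 populations. Il7r on day 4 lies at 1.10 to 1.54 in the 4 populations and on day 3 at 0.21 to 0.30.

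For several chains the 2 lowest libraries shared a harvest day. For Il21r, Il6ra and Il6st the day 4 libraries of vehicle and PPCA were the lowest pair of the 8 in all 4 populations. In CD4-gated cells Il6st was at 58.8 and 56.1 CPM in these libraries and at 84.9 to 116 in the other 6. Il21r was at 85.7 and 81.7 CPM, against 106 to 154 elsewhere. The day 4 libraries were also the highest pair for the dissociation and early response genes and for the naive and recirculating T cell markers in all 4 populations. They were the lowest pair for B cell markers in all except Ccl5-positive CD8 cells. The part of these genes was not tested. For Ifngr1 the lowest pair was the day 3 libraries in all 4 populations, at 64.9 and 74.8 CPM against 95.6 to 158 in CD4-gated cells. Il2rg was highest in PPCA day 2 in all 4 populations. Each day has only 1 library per arm, so a day and its libraries cannot be told apart.

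The comparison of the single active and onset libraries has no replicate check. At a difference of 1.5-fold or more, 0 of 10 members were apart in CD4-gated, Ccl5-negative CD8 and Foxp3-positive cells, where 17%, 15.9% and 22.8% of all genes with 10 or more UMIs were. In Ccl5-positive CD8 cells 2 of 10 were apart, beside 18.6% of all genes. Counting intervals of the log2 ratio are narrow where UMIs are many. The share of all genes with an interval apart from 0 was not computed, so members are not counted by this measure. In Ccl5-positive CD8 cells Il4ra was at 61.5 CPM in active and 38.0 in onset (ratio 1.62, 300 and 170 UMIs). Il6st was at 109 and 70.2 CPM (ratio 1.56, 533 and 314 UMIs). Il6ra followed with a ratio of 1.49. In these cells the effector and memory markers summed to 2240 CPM in active and 4067 in onset, the gamma delta T cell genes to 94.1 and 216, and the dissociation and early response genes to 1033 and 2041, and their part was not tested. Ifngr1 was lower in active than in onset in all 4 populations, with log2 ratios of -0.17, -0.33, -0.31 and -0.39, and the counting intervals lay below 0 in each. Il21r was lower by -0.25, -0.30 and -0.38 in CD4-gated, Ccl5-negative CD8 and Ccl5-positive CD8 cells, and at -0.14 in Foxp3-positive cells, where the interval from -0.39 to 0.12 held 0. These 95% intervals cover counting error only.

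**Figure D5:**
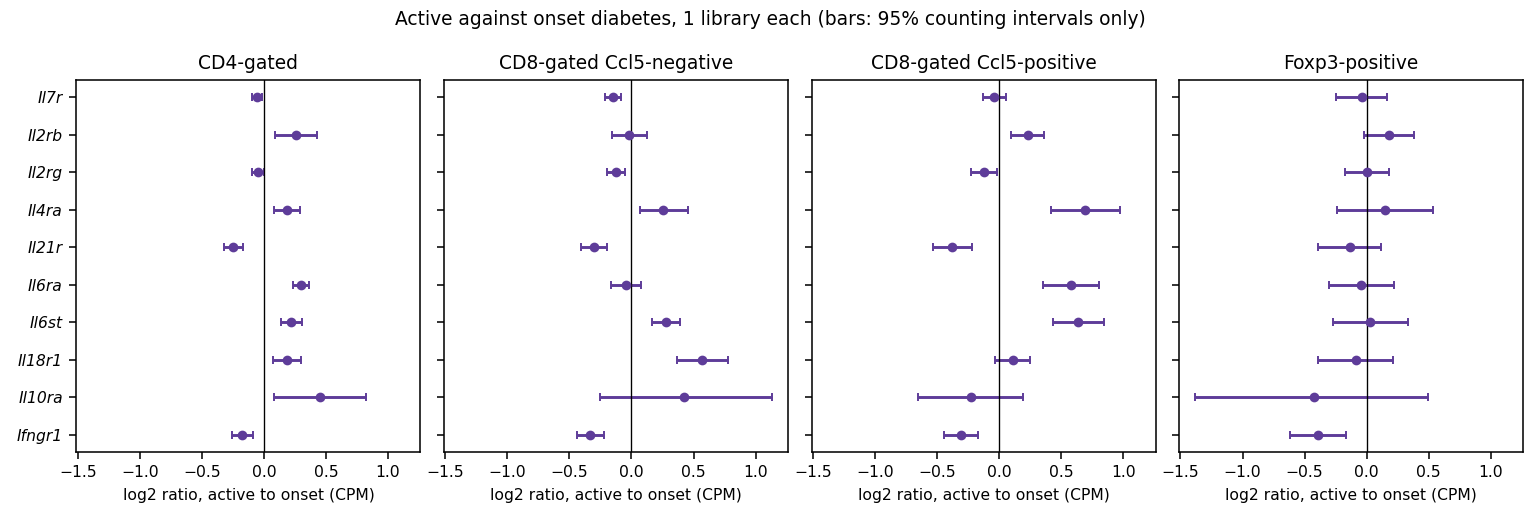
Log2 ratio of active to onset CPM (x axis) for each receptor chain (rows) in the 4 populations, with 95% counting intervals from 1 library per group. The Ifngr1 ratio is below 0 in all 4 panels, and Il4ra and Il6st pass 1.5-fold only in Ccl5-positive CD8 cells.

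Within a population some pairs of chains were found in the same cells more or less often than their separate shares give, after each cell was reduced to 2000 UMIs. The value is the share of cells with both chains divided by the product of the shares, averaged over 8 libraries. Il7r and Il2rb gave 0.76 ± 0.08 in CD4-gated and 0.72 ± 0.15 in Foxp3-positive cells, below 1 in 8 of 8 libraries in each. In Ccl5-negative and Ccl5-positive CD8 cells the pair gave 0.99 ± 0.09 and 0.96 ± 0.08. Il2rb and Il18r1 gave 2.16 ± 0.44 in CD4-gated and 1.19 ± 0.09 in Ccl5-positive CD8 cells, above 1 in 8 of 8. It was 1.28 ± 0.36 in Ccl5-negative CD8 cells, above 1 in 6 of 8, and 0.94 ± 0.13 in Foxp3-positive cells. Il6ra and Il6st gave 1.62 ± 0.32 in Ccl5-positive CD8 cells, above 1 in 8 of 8, and 1.07 to 1.12 in the other populations. The pairs of Il2rg with Il7r, Il2rb, Il4ra and Il21r gave 0.99 to 1.06. Each gate holds several kinds of T cell, and their part in these ratios was not tested.

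Over the 32 sums of 8 libraries and 4 populations, the genes whose log levels ran most like each member's, among 5443 genes, were Pecam1 for Il6ra (r = 0.96), Rbm5 for Il21r (0.94), Casp1 for Il18r1 (0.94), Gprin3 for Il2rb (0.92), Tecpr1 for Il4ra (0.92), Slc44a2 for Il6st (0.89), Prrc2c for Il2rg (0.87), Traf1 for Ifngr1 (0.87) and N6amt1 for Il7r (0.82). The sums of a library share its preparation and depth, so these are descriptions. Il10ra was left out at a mean under 20 CPM.

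The authors' deposited table of cluster markers lists 9 of the 10 members, all except Il4ra, in 1 or more of 7 named clusters. In the authors' deposited table Il2rb has an average log2 fold change of 1.34 in the cluster named CD4 Treg and 1.07 in CD8 TRM TEM, and Il18r1 has 1.26 in CD8 TRM TEM. The same authors' deposited table gives Il7r 1.09 in CD4 Th17 and Il6ra 0.36 in CD4 Naive. Those values set the cells of a named cluster against other cells and carry no replicate error.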

How the data were processed

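Per the submitters' processing notes, reads were processed with Cell Ranger 6.1.2 and Seurat, while the matrix headers name Cell Ranger 6.0.0, and no genome build is named there. The authors deposited raw UMI counts per gene and barcode (10x 3' chemistry, per the labels) and a table of cluster markers with average log2 fold changes and p-values. The members and lists were chosen with earlier results of these data known.

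Barcodes with at least 500 genes and at most 10% mitochondrial UMIs were kept, with at least 2 UMIs over 6 T cell genes and at most 1 over 6 B cell and myeloid genes. Scrublet's own threshold (scanpy 1.11.5) marked 0 or 1 barcode per library and had not worked, so the barcodes with the highest scores were removed as doublets, at 0.8% for every 1000 barcodes of the library, 6752 in all, leaving 70547 T cells. Free RNA was not corrected. Counts were summed per library and population, and tested with edgeR 4.0.16 (quasi-likelihood, TMM scaling, filterByExpr, Benjamini-Hochberg over all genes tested), with library as block between populations and harvest day as block for PPCA against vehicle. A day joins 1 library of each arm by label, and deviations of same-day libraries correlated at 0.197 to 0.508 in all 12 pairs. On simulated data 78.5% to 100% of genes changed 2-fold were recovered, depending on the comparison. The simulation held no day or library effects and used the trended dispersion, so recovery in the real data may be lower. Smaller changes were not simulated, and the largest fitted PPCA difference of a member was 1.72-fold (Il7r, Foxp3-positive cells). Named genes were the 10 members, Il2ra and Il18rap, and list genes at the ends of each comparison. Alternatives were DESeq2 1.42.0, limma-voom 3.58.1, other scaling and filters, doublets kept, thinned cells, no block, libraries left out, and subsets by Xist; total-UMI scaling, the Y-linked subset and the finer Ccl5 groups were chosen after seeing the data. Ccl5, Foxp3, Cd4 and Cd8 chains defined the populations and are no results.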

Additional observations from a re-analysis of the deposited data

Results flagged for a closer look

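The ratio of PPCA to vehicle for Il6st lay on opposite sides of 0, on the log2 scale, in 2 populations on all 3 days. In Ccl5-positive CD8 cells its level was lower in PPCA than in vehicle on days 2, 3 and 4 (log2 ratios -0.34, -0.24 and -0.72), and in Foxp3-positive cells it was higher on each day (0.03, 0.30 and 0.29). The difference of the mean ratios, Foxp3-positive minus Ccl5-positive CD8, was 0.64 on the log2 scale. It was not tested, and neither population's main fit called Il6st. These ratios use CPM scaled by total UMIs and carry no counting error. In the Foxp3-positive fit over all days, total-UMI scaling put the median of all genes 0.045 above TMM scaling. The day 2 ratio of 0.03 is smaller than that, so its sign is not settled.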

How the results depend on the processing

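Of the called population differences, those of Il2rb and Il6ra kept their direction and call in all 3 comparisons under every alternative run. Changes of direction were few. Without Ccl5 cells in both gates, the CD8 against CD4 log2 fold changes became -0.48 for Il18r1, -0.54 for Il10ra and 0.047 for Il2rg. For Ccl5-positive against Ccl5-negative CD8 cells, Il7r became 0.086 and Il21r 0.029 with total-UMI scaling, and Il7r was 0.026 with doublets kept, 0.076 in Y-linked libraries only and -0.060 to 0.039 with 1 library left out, against -0.25 and a call in thinned cells. For Foxp3-positive cells Il2rg became 0.070 and Il4ra 0.094 with total-UMI scaling, and Il4ra 0.012 in thinned cells.

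Genes called without the replicate block (the library) numbered 2012 for CD8 against CD4 (3 members, not 8), 1979 for Ccl5 and 2297 for Foxp3. Without the replicate block of harvest day 0 genes were called in Ccl5-positive CD8 and Foxp3-positive cells for PPCA, and 0 for the difference between gates; no member's call changed. Thinned cells gave 3319 calls for CD8 against CD4 and 2143 for Foxp3, and Y-linked libraries 2735 for Ccl5.

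For PPCA against vehicle the gene counts, listed for CD4-gated, Ccl5-negative CD8, Ccl5-positive CD8 and Foxp3-positive cells, were 35, 33, 23 and 15 with DESeq2, 137, 172, 141 and 97 without the low-count filter, and 215, 353, 127 and 82 with the Xist and Y-linked factor. That factor called 1 member in each population, and the missing filter 1 member in each except CD4-gated. Total-UMI scaling called 3, 20 and 11 genes in the last 3 populations and limma-voom 2 in each CD8 population. Thinned cells gave 1, 6 and 5 in the first 3, and kept doublets 2 in Ccl5-positive CD8 cells. With a day pair left out the ranges were 0 to 25, 0 to 131, 3 to 120 and 1 to 42, the highest always without day 4. The test between gates called 57 genes without the filter (1 member, Il2rb), 2 in thinned cells and 0 to 1 with a pair left out. Il10ra rested on the fewest UMIs, as few as 7 in a Foxp3-positive sum.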
